A study of Homo sapiens with 4 samples.

Results

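The genes that encode the proteins of the cytosolic ribosome were examined in K562-U2AF1 S34F cells given SF1-8 or DMSO. Members were the protein-coding entries whose gene name holds an RPL, RPS, RPLP or RPSA symbol, with the entry of highest mean count kept for each symbol, which gave 84 genes of the 64873 entries in the table. Of these, 53 encode proteins of the large (60S) subunit or their paralogs and 31 encode proteins of the small (40S) subunit. Protein genes of mitochondrial ribosomes have other symbols and were not included.

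K562 is a human erythroleukemia cell line, and all 4 libraries came from K562 cells that overexpress U2AF1 with the S34F substitution, a splicing factor mutation found in myelodysplastic syndrome. Cells of 2 libraries had been given DMSO and cells of the other 2 had been given SF1-8, a small molecule described by the study as an inhibitor of the U2AF homology motif of U2AF1, at 30 uM for 48 h. No cells with wild-type U2AF1 were analysed here, so any difference was measured on the S34F background alone. The labels do not say whether the 2 libraries of a group came from separate cultures, and the p-values then measure only the spread between these libraries, which may be technical.

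Ribosomes are built from ribosomal RNA and a set of ribosomal proteins that each take a fixed place, and a cell that grows keeps the proteins of both subunits in balance. Most ribosomal protein mRNAs begin with an unbroken stretch of C and T letters (C and U in the RNA), called a terminal oligopyrimidine or TOP tract, through which growth signalling sets how strongly they are translated. Several members are mutated in Diamond-Blackfan anemia, a failure of red cell production, and reduced RPS14 is a known feature of a form of myelodysplastic syndrome.

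The start regions of selected members are given to show what a TOP tract looks like and which of the members with the largest differences have one at the annotated start. Each is a window of 30 bases in RefSeq (GRCh38.p14), 15 before and 15 from an annotated transcription start, 5′ to 3′ on the strand of the gene. Capitals mark the longest unbroken run of C and T. Where a gene has several listed starts, the one with the longest run was taken, so the runs shown are selected for length. RPS12 had the highest level of all members, RPS14 and RPS19 are the genes known best from blood disease, and the others are members with large differences or their relatives.
RPS12 (chr6:132814554-132814583, plus strand): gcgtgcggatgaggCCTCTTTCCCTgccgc
RPS14 (chr5:150449725-150449754, minus strand): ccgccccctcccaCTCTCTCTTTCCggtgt
RPS19 (chr19:41860240-41860269, plus strand): ggaaaccccgtcgTTCCCTTTCCCCTggct
RPL21 (chr13:27251543-27251572, plus strand): cggccccgCCTCTTTCCTTTCggccggaac
RPL29 (chr3:51995881-51995910, minus strand): caccgcagCCCCTTTCTCTTCCggttctag
RPL41 (chr12:56116618-56116647, plus strand): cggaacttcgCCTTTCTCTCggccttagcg
RPL22 (chr1:6199581-6199610, minus strand): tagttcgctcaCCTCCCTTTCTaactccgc
RPL22L1 (chr3:170870181-170870210, minus strand): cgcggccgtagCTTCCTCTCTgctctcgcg
RPL26 (chr17:8383179-8383208, minus strand): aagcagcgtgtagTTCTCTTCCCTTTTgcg
RPL26L1 (chr5:172958714-172958743, plus strand): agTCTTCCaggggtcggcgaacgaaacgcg
RPL7L1 (chr6:42879601-42879630, plus strand): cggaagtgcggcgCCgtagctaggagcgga
RPL15 (chr3:23917117-23917146, plus strand): cccaaaaggcattgtgggagtacagCTCTT

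Of the windows shown, those of RPL26L1, RPL15 and RPL7L1 had runs of only 6, 5 and 2 letters, while the other 9 had runs of 10 to 14 letters. Among the 67 members that matched the RefSeq promoter table by symbol, 53 (79.1%) had a run of at least 8 C or T letters, on the strand of the gene, in the window of any listed start. Over all 27305 genes of that table the share was 16.5%, and the median longest run was 11 letters for the members and 5 for all genes. RPL21, with a higher fitted level under SF1-8, and RPL29, with a lower one, both had such a run. So did RPL22L1 and RPL41, whereas RPL7L1, RPL26L1 and RPL15 had none inside the window. The run of RPL15 reaches the end of its window, so its full length is not shown. A run is a description of the letters in the window, and no measure of translation was made in these libraries.

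Members also differed in the structure of their genes. They lie on 21 chromosomes, 12 of them on chromosome 19. In GENCODE version 29 the median member has 4 introns, and RPL10L is the only member without any. The encoded proteins range from 25 amino acids (RPL41) to 427, with a median of 151.5.

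Levels are given as FPKM, a read count scaled for gene length and library depth, which allows genes to be compared per length. Ribosomal protein genes were abundant, with a median of 76.9 FPKM over the mean of all 4 libraries, 31 members over 100 FPKM and 12 under 20 FPKM. RPS12, a small subunit protein, was the highest at 718 and 741 FPKM under DMSO and 690 and 753 FPKM under SF1-8. Next was RPS2, which lines the mRNA entry channel, at 449 and 372 FPKM under DMSO and 449 and 425 FPKM under SF1-8. RPS3A had 363 and 322 FPKM under DMSO and 306 and 336 FPKM under SF1-8. In each of these 3 the DMSO and SF1-8 ranges overlapped. RPL7A, of the large subunit, had 378 and 277 FPKM under DMSO and 304 and 367 FPKM under SF1-8. RPS18 had 324 and 319 FPKM under DMSO and 279 and 305 FPKM under SF1-8. Ranges of RPL7A overlapped and those of RPS18 did not. RPS12 stood clear of RPS2 in every library. The range of RPS2 over all 4 libraries crossed that of RPL7A but not that of RPS3A, and RPS3A, RPL7A and RPS18 crossed each other and cannot be ordered beyond their spread.

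At the lower end stood paralogs and members whose entries also name another gene or pseudogene. RPL10L, a testis paralog of RPL10, was listed at 0 in all 4 libraries and was the only member not tested. RPL3L, the muscle paralog of RPL3, had 0.0429 and 0.0713 FPKM under DMSO and 0.0790 and 0.0971 FPKM under SF1-8, from estimated counts of 7 to 22. RPS29 had 9.54 and 11.5 FPKM under DMSO and 9.65 and 10.5 FPKM under SF1-8. Among the members at 1 FPKM or more, the highest mean level was 214-fold the lowest. Some low values belonged to shared entries: 13 members lie in an entry that also names another gene or pseudogene beyond snoRNAs and miRNAs (RPL22 with CHD5, RPL26 with KRBA2, RPS29 with the pseudogene RPL32P29), with a median of 32.4 FPKM, and 6 of the 12 members under 20 FPKM are such entries. The median of the members outside such entries was 84.9 FPKM.

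**Figure D1:**
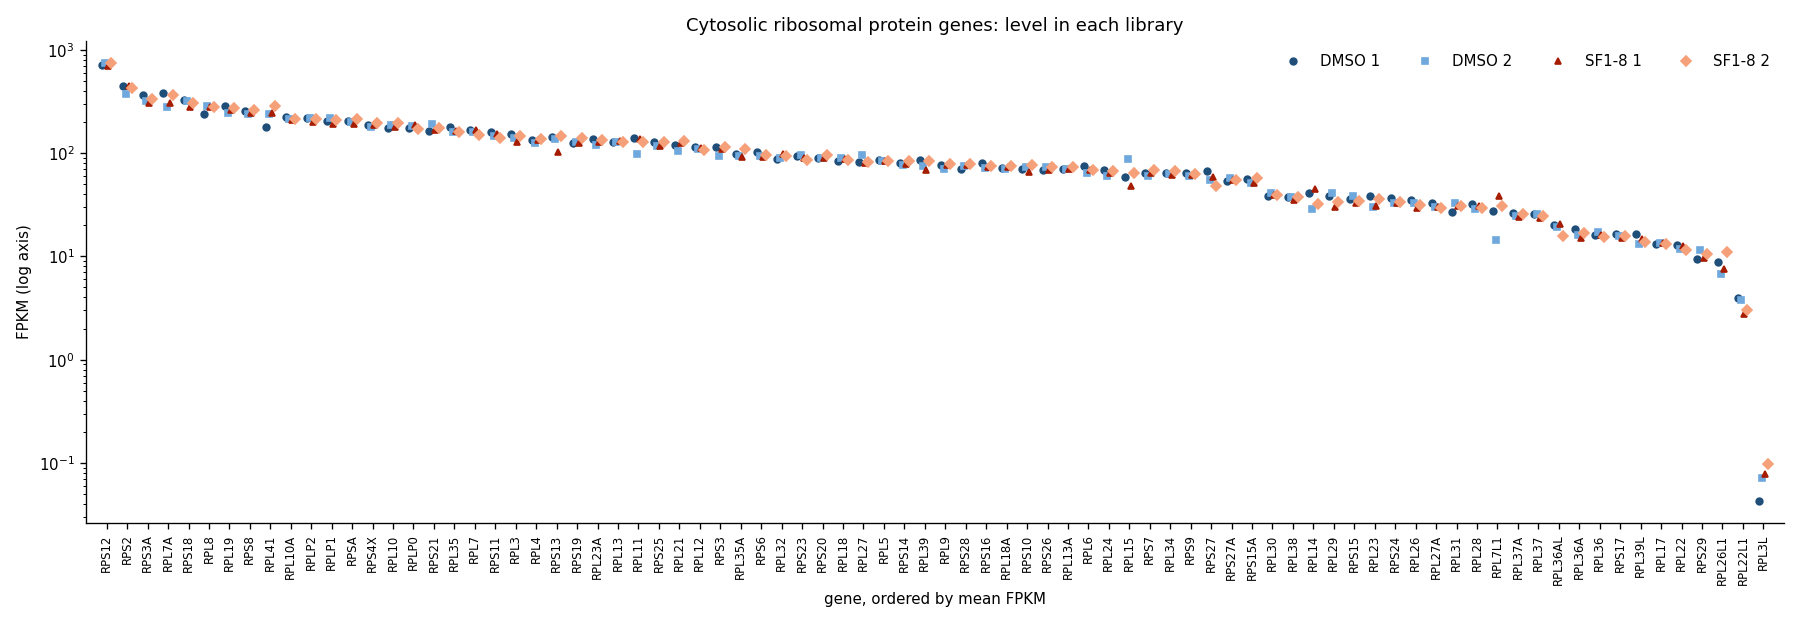
FPKM (log axis) of 82 ribosomal protein genes in each of the 4 libraries, ordered by mean level, with circles and squares for DMSO 1 and 2 and triangles and diamonds for SF1-8 1 and 2. From RPS12 at a mean of 726 FPKM to RPL22L1 at 3.40 FPKM, most points of a gene lie close together. Visible gaps between libraries are those of RPL7L1, RPL15 and RPL41. RPL3L is the lowest gene drawn, at a mean of 0.0726 FPKM, and its points are also apart. RPL10L, listed at 0, is not drawn.

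The first comparison asked whether SF1-8 moved the summed level of the ribosomal protein mRNAs. The summed level of all members was 9354 and 9001 FPKM under DMSO and 8961 and 9412 FPKM under SF1-8. Both SF1-8 libraries lay outside the DMSO range, 1 below and 1 above it, and the group means were 9177 ± 249 and 9187 ± 319 FPKM (SD, n = 2 each). Their ratio was 1.00, with p = 1 in a two-sided exact permutation test. With 2 libraries against 2 that test cannot give a p under 0.333. Members made up 7.43% and 7.32% of the FPKM on coding entries under DMSO and 7.19% and 7.42% under SF1-8.

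The sums of each subunit were then compared. Genes of the large subunit summed to 4869 and 4698 FPKM under DMSO and 4736 and 4937 FPKM under SF1-8, a ratio of 1.01 (exact permutation p = 0.667). Genes of the small subunit summed to 4485 and 4303 FPKM under DMSO and 4225 and 4475 FPKM under SF1-8, a ratio of 0.990 (exact permutation p = 0.667). In both subunits the ranges of the groups overlapped. The large subunit sum divided by the small subunit sum was 1.09 in each DMSO library and 1.12 and 1.10 under SF1-8. That quotient was higher in both SF1-8 libraries, by a factor of 1.02 between the group means, with the smallest p the exact permutation test can give here (0.333). Over entries that name 1 gene the factor was 1.02 with an exact permutation p of 0.667, so that p depends on which entries are summed. Those sums leave out entries that also name a snoRNA or miRNA as well as those that name another long gene. With a library left out the factor was 1.01 to 1.03.

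**Figure D2:**
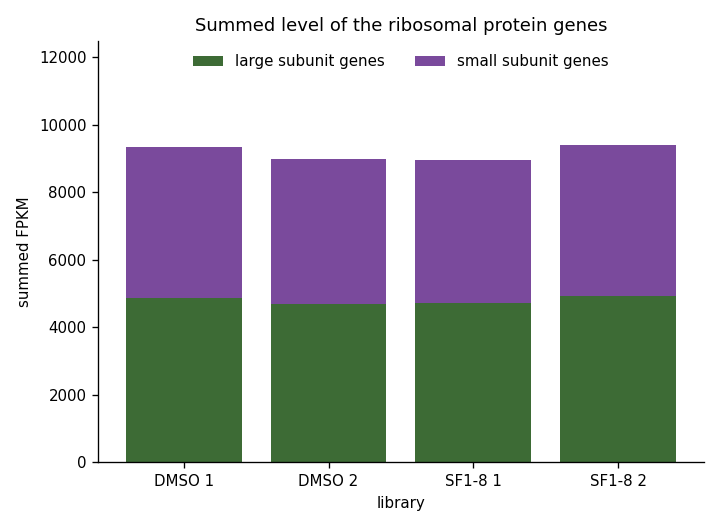
Summed FPKM of the ribosomal protein genes in each library, stacked by large and small subunit, on an axis that starts at 0. The 4 stacks stand between 8961 and 9412 FPKM, and the split between the subunits is nearly the same in all.

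Gene by gene, no ribosomal protein gene passed the threshold. With edgeR's quasi-likelihood fit and Benjamini-Hochberg adjusted values over all entries tested, 0 of 83 members had an adjusted p under 0.05, against 0.042% of all 26167 entries (11 entries) and 0.0358% of the 2790 coding entries with a mean of at least 10 FPKM, and the smallest adjusted p of a member was 0.970. At an unadjusted p under 0.05 there were 3 members (3.61%), beside 4.33% of all tested entries and 2.94% of the abundant coding entries. One of these, RPL21, was higher under SF1-8 (1.78% of all entries and 2.04% of abundant coding entries were called in that direction), and RPL22L1 and RPL29 were lower (2.54% and 0.896%). The share of members was below that of all entries and above that of abundant coding entries, so in this fit the count is near the background. It depended on the libraries, with 8 members (9.64%, beside 4.82% of all entries) without DMSO 1, 5 (6.02%, beside 7.96%) without DMSO 2 and 1 (1.20%, beside 4.13%) without SF1-8 1.

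Differences were small. The median log2 fold change of SF1-8 over DMSO was 0.01 over the members, with a median standard error of 0.0765, and 45 members were above 0 and 38 below. With limma on quantile-scaled FPKM the members' median was -0.07, so its sign depends on the scaling. The median was -0.01 over all tested entries and 0.04 over the abundant coding entries. In all, 72 members (86.7%) had a log2 fold change within 0.15 of 0, beside 40.4% of all entries and 83% of the abundant coding entries. Large subunit genes (27 above 0 and 25 below) and small subunit genes (18 above and 13 below) both had a median of 0.01. The FPKM of the groups did not overlap for 9 members that were higher under SF1-8 (14.2% of all entries, 19.1% of abundant coding entries) and for 11 that were lower (20% and 10.3%). As shares of the tested members, 10.8% and 13.3%, both were below those of all entries. Beside the abundant coding entries, the share that was higher under SF1-8 was smaller and the share that was lower was larger.

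**Figure D3:**
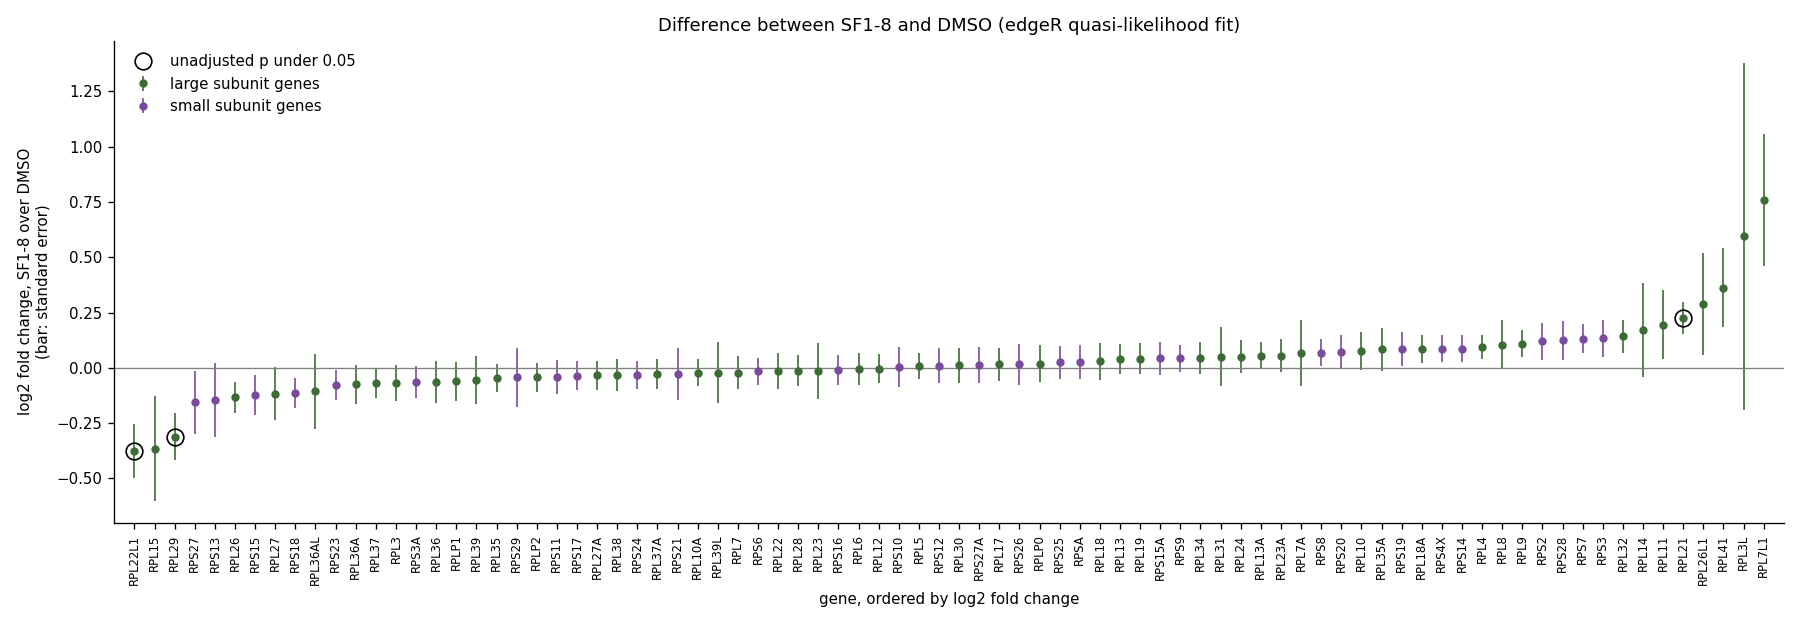
Log2 fold change of SF1-8 over DMSO with its standard error for 82 of the 83 tested members, ordered by size and coloured by subunit, with rings on the 3 members at an unadjusted p under 0.05. Most points lie within 0.15 of 0, and RPL7L1 at 0.76 and RPL22L1 at -0.38 stand at the ends.

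The members with the highest fitted differences were RPL7L1, RPL3L, RPL41, RPL26L1 and RPL21. RPL7L1 (chr6:42879616-42889900) is a relative of RPL7 that is thought to act in the assembly of the large subunit. It had 27.7 and 14.4 FPKM under DMSO and 38.8 and 30.5 FPKM under SF1-8. Both SF1-8 libraries were above both DMSO libraries, yet the DMSO libraries differed from each other more than the nearer pair of the groups. Its log2 fold change was 0.76 ± 0.299 (SE), with an unadjusted p of 0.0506 and an adjusted p of 0.970 after Benjamini-Hochberg adjustment in the edgeR quasi-likelihood fit. It ran from 0.39 without DMSO 2 to 1.26 without DMSO 1.

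RPL41 (chr12:56116590-56117967), the shortest protein of the ribosome at 25 amino acids, had 179 and 238 FPKM under DMSO and 242 and 286 FPKM under SF1-8. Ranges did not overlap, though DMSO 2 and SF1-8 1 were within 5 FPKM. The log2 fold change was 0.36 ± 0.178 (SE), with an unadjusted p of 0.0950, and it ran from 0.14 without DMSO 1 to 0.63 without DMSO 2.

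RPL21 (chr13:27251309-27256568), a core large subunit protein whose entry also names the snoRNAs SNORD102 and SNORA27, had 119 and 104 FPKM under DMSO and 124 and 131 FPKM under SF1-8. Both SF1-8 libraries were higher than both DMSO libraries. Its log2 fold change was 0.22 ± 0.0717 (SE), with an unadjusted p of 0.0253. The unadjusted p was under 0.05 in 8 of 12 other settings with all libraries, which refit the same data. Its log2 fold change was 0.18 to 0.28 with a library left out, fits in which the lone library of a group is assumed to vary like the other group. Entries named as pseudogenes of RPL21 held 12.4% of the counts of RPL21 and those entries together, and with them added the log2 fold change was 0.20.

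RPL26L1 (chr5:172958729-172969721), a paralog of RPL26, had 8.73 and 6.79 FPKM under DMSO and 7.54 and 11.1 FPKM under SF1-8. Its ranges overlapped. The log2 fold change was 0.29 ± 0.230 (SE). RPL3L had a fitted log2 fold change of 0.59 ± 0.786 (SE), at the few counts given above, and it was 0.23 without DMSO 1, 1.11 without DMSO 2 and 0.04 with limma on log2(FPKM + 1) without a filter.

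The members with the lowest fitted differences were RPL22L1, RPL15, RPL29, RPS27 and RPS13. RPL22L1 (chr3:170864875-170870208), a paralog of the RNA-binding large subunit protein RPL22, had 3.93 and 3.81 FPKM under DMSO and 2.79 and 3.05 FPKM under SF1-8. Groups did not overlap, and the gap between them was larger than the gap within either group. The log2 fold change was -0.38 ± 0.122 (SE), with an unadjusted p of 0.0260 and an adjusted p of 0.970 after Benjamini-Hochberg adjustment in the edgeR quasi-likelihood fit. The unadjusted p was under 0.05 in 12 of 12 other settings with all libraries. Those settings refit the same libraries and are not independent of each other. The log2 fold change lay between -0.43 and -0.32 with a library left out.

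RPL29 (chr3:51993522-51995895), a basic protein of the large subunit, had 38.3 and 41.4 FPKM under DMSO and 29.8 and 33.4 FPKM under SF1-8. Its groups did not overlap. The log2 fold change was -0.31 ± 0.105 (SE), with an unadjusted p of 0.0306 by edgeR's quasi-likelihood test. The unadjusted p was under 0.05 in 12 of 12 other settings with all libraries, which again refit the same data. Without a library the log2 fold change ran from -0.40 to -0.21. Pseudogene entries held 6.10% of the counts of RPL29 and those entries together, and adding them gave a log2 fold change of -0.30.

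RPL15 (chr3:23916591-23924374), which is mutated in some cases of Diamond-Blackfan anemia, had 59.3 and 86.8 FPKM under DMSO and 48.3 and 63.7 FPKM under SF1-8. Groups overlapped, since SF1-8 2 was above DMSO 1. The log2 fold change of -0.36 ± 0.237 (SE) rested on DMSO 2, without which it was -0.01. With its pseudogene entries, 10.3% of the joint counts, it was -0.29.

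RPS27 (chr1:153990762-153992155), a zinc-binding protein of the small subunit, had 67.4 and 54.8 FPKM under DMSO and 59.3 and 48.1 FPKM under SF1-8. RPS13 (chr11:17074388-17077715), also of the small subunit, had 143 and 137 FPKM under DMSO and 102 and 146 FPKM under SF1-8. Ranges overlapped for both, and in RPS13 only SF1-8 1 was low. Their log2 fold changes were -0.16 ± 0.142 (SE) for RPS27 and -0.15 ± 0.169 (SE) for RPS13. That of RPS27 ran from -0.0016 without SF1-8 2 to -0.32 without SF1-8 1, and that of RPS13 from -0.42 without SF1-8 2 to 0.089 without SF1-8 1.

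**Figure D4:**
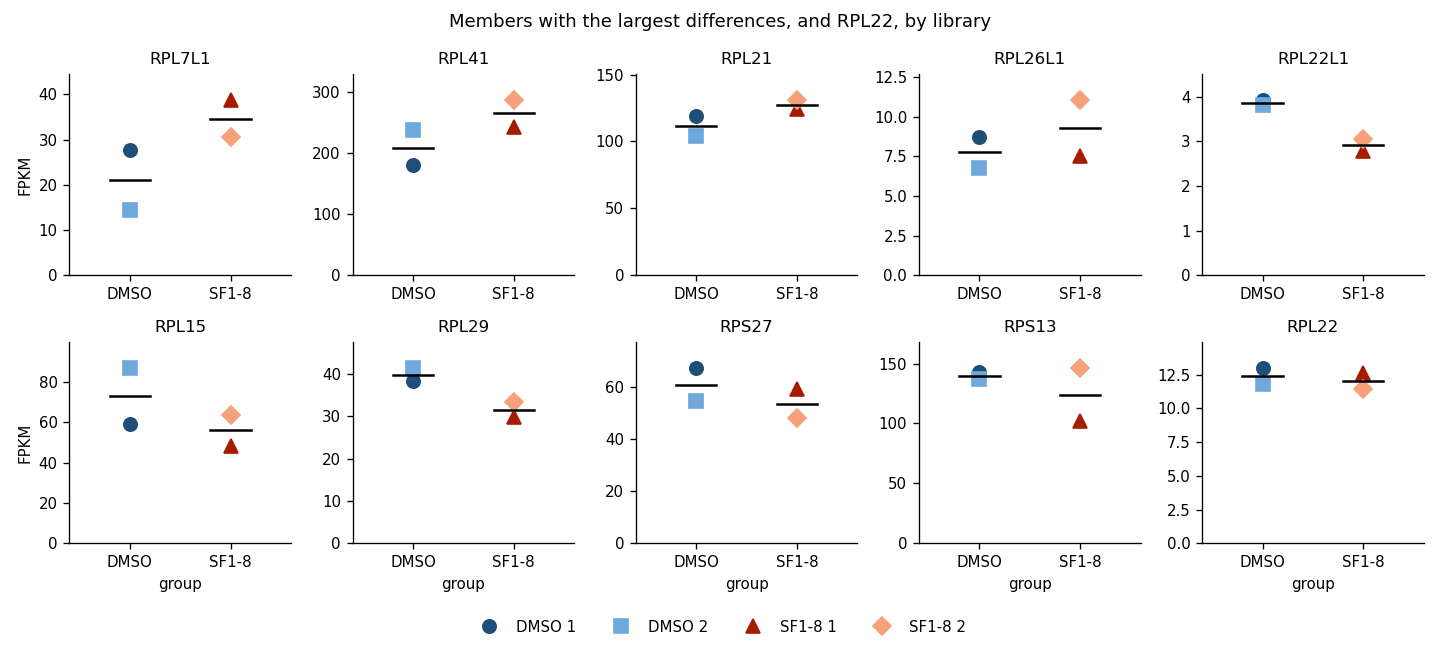
FPKM per library, each axis from 0, of the members with the highest and lowest fitted differences (RPL3L is left out for its low level) and of RPL22, the parent of RPL22L1, with a bar at each group mean of 2 libraries. Groups are apart for RPL7L1, RPL41, RPL21, RPL22L1 and RPL29, and overlap for RPL26L1, RPL15, RPS27, RPS13 and RPL22.

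By role, the median log2 fold changes lay between -0.04 and 0.10. The stalk proteins RPLP0, RPLP1 and RPLP2 form the arm of the large subunit that recruits and activates elongation factors. RPLP0 had 176 and 183 FPKM under DMSO and 188 and 170 FPKM under SF1-8. RPLP1 had 203 and 221 FPKM under DMSO and 191 and 208 FPKM under SF1-8. RPLP2 had 220 and 217 FPKM under DMSO and 201 and 215 FPKM under SF1-8. The ranges overlapped for RPLP0 and RPLP1 and not for RPLP2, whose groups were 2 FPKM apart at the nearest. Of the 3 stalk genes, 1 was above 0 and 2 below, with a median log2 fold change of -0.04.

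RPL5 and RPL11 form the 5S ribonucleoprotein with 5S rRNA, which binds the p53 regulator MDM2 when ribosome assembly fails. RPL5 had 86.6 and 83.1 FPKM under DMSO and 84.3 and 83.1 FPKM under SF1-8. RPL11 had 140 and 97.2 FPKM under DMSO and 138 and 127 FPKM under SF1-8. Both overlapped, and for RPL11 DMSO 2 was the low library. The log2 fold changes were 0.0079 ± 0.0600 (SE) for RPL5 and 0.20 ± 0.155 (SE) for RPL11, with a median of 0.10. The 8 genes of proteins of the peptide exit tunnel include RPL4, RPL17, RPL26 and RPL39. Of the 8, 5 were above 0 and 3 below, with a median log2 fold change of 0.03 and a range from -0.13 to 0.09.

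In the small subunit, the 4 proteins at mRNA entry and the decoding site (RPS2, RPS3, RPS15, RPS23) split into 2 above 0 and 2 below, with a median log2 fold change of 0.02. RPS14, which lies near the mRNA exit site, had 79.4 and 76.1 FPKM under DMSO and 78.8 and 83.1 FPKM under SF1-8. RPS19, the most often mutated gene of Diamond-Blackfan anemia, had 126 and 129 FPKM under DMSO and 127 and 139 FPKM under SF1-8. RPS6, the small subunit protein phosphorylated on growth signals, had 101 and 93.2 FPKM under DMSO and 92.3 and 96.4 FPKM under SF1-8. Ranges of these 3 genes overlapped. RPSA, also known as the laminin receptor, had 204 and 202 FPKM under DMSO and 191 and 216 FPKM under SF1-8. RPS27A, made as a fusion with ubiquitin, had 54.0 and 57.3 FPKM under DMSO and 55.3 and 55.0 FPKM under SF1-8. Both overlapped. Over the 18 ribosomal protein genes known in Diamond-Blackfan anemia, 10 were above 0 and 8 below, with a median log2 fold change of 0.01. Of these, 0 had an unadjusted p under 0.05, beside 4.33% of all tested entries, so a list this short can hold 0 without differing from the rest. That median was -0.05 without DMSO 1 and 0.07 without DMSO 2, so its sign rests on single libraries. The smallest unadjusted p of this list was that of RPS7, an early-assembling small subunit protein with 64.1 and 59.8 FPKM under DMSO and 64.2 and 69.0 FPKM under SF1-8, followed by RPL26.

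Paralogs and their parents were set side by side, since a few ribosomal proteins have a second gene with tissue-specific expression. Every paralog but RPL36AL had a lower FPKM than its parent in all libraries. RPL22L1 at 2.79 to 3.93 FPKM compares with RPL22, which had 12.98 and 11.8 FPKM under DMSO and 12.6 and 11.4 FPKM under SF1-8. RPL22 overlapped between the groups while RPL22L1 did not, and the difference between the 2 genes' changes was not tested. RPL26, in an entry shared with KRBA2, had 35.5 and 32.9 FPKM under DMSO and 29.4 and 31.8 FPKM under SF1-8. Its groups did not overlap, with SF1-8 lower. RPL7, the parent of RPL7L1, had 169 and 160 FPKM under DMSO and 167 and 151 FPKM under SF1-8, which overlapped. RPL36AL had 20.3 and 19.3 FPKM under DMSO and 20.4 and 15.6 FPKM under SF1-8. RPL36A, in an entry shared with HNRNPH2, had 18.4 and 16.1 FPKM under DMSO and 15.2 and 16.9 FPKM under SF1-8. Ranges of both genes overlapped between the groups. RPL39L, a paralog known from testis, had 16.3 and 13.1 FPKM under DMSO and 14.6 and 13.7 FPKM under SF1-8, and its parent RPL39 had 85.5 and 75.2 FPKM under DMSO and 68.6 and 83.1 FPKM under SF1-8. Both overlapped. RPL3 (153 and 140 FPKM under DMSO, 127 and 146 FPKM under SF1-8) and RPL10 (174 and 186 FPKM under DMSO, 177 and 196 FPKM under SF1-8) overlapped as well.

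The spread between libraries of the same group was as large as the difference between the groups. In log2 CPM the median size of the difference was 0.0936 between the DMSO libraries and 0.0829 between the SF1-8 libraries. Between the group means it was 0.0591, which is smaller in part because each mean averages 2 libraries. The difference between the groups exceeded both differences within them for 12 of 83 members (14.5%), beside 24.0% of the abundant coding entries and 22.6% of all entries. A gap of more than 0.3 between libraries of a group was seen for 16 members, 15 of them at 1 FPKM or more.

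RPL3L, at its few counts, had gaps of 0.75 between the DMSO libraries and 0.23 between the SF1-8 libraries. Of the other members the widest gaps belonged to RPL7L1, at -0.87 for DMSO 2 minus DMSO 1 and -0.36 for SF1-8 2 minus SF1-8 1, and to RPL15, at 0.63 and 0.39. Second libraries were thus lower in both groups for RPL7L1 and higher in both for RPL15. RPL14, a large subunit protein named here after its values were seen, had gaps of -0.45 and -0.48. RPL11 had -0.44 and -0.13. Others differed in only 1 group, such as RPS13 with 0.02 between the DMSO libraries and 0.51 between the SF1-8 libraries. Across 82 members without RPL3L and RPL10L, which share libraries and depth, Spearman's rho between the size of the log2 fold change and the mean FPKM was 0.03.

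**Figure D5:**
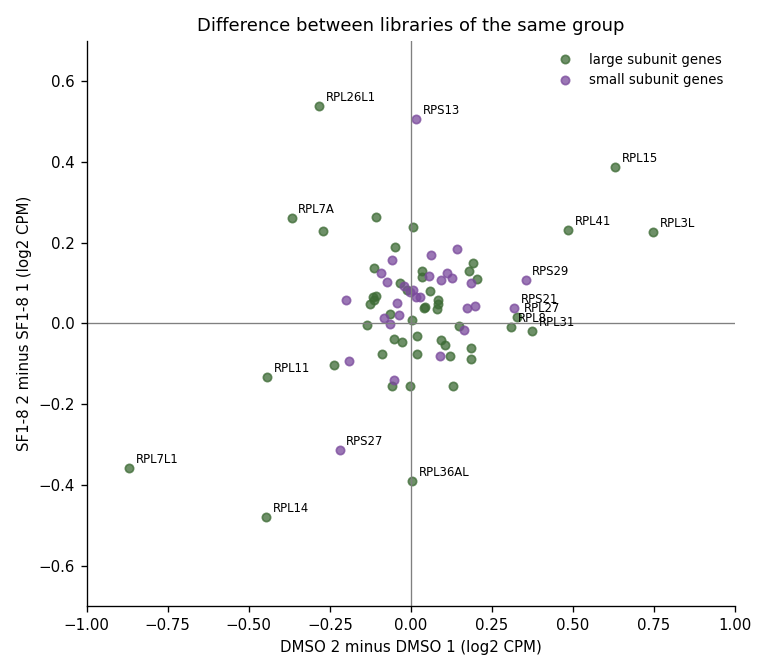
Difference between the libraries of a group in log2 CPM for 82 of the 83 tested members, with DMSO 2 minus DMSO 1 on the horizontal axis and SF1-8 2 minus SF1-8 1 on the vertical axis, and names on members with a gap over 0.3. RPL7L1, RPL14 and RPL11 lie at the lower left, RPL15 and RPL41 at the upper right, and most members crowd around 0.

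Ribosomal protein genes have many processed pseudogenes, whose near-identical sequence can take or give reads. For 74 members, 604 other entries are named as their pseudogenes. The median share of counts on them was 0.916% of the member and its pseudogenes together, and it was over 5% for 25 members. RPL23A had the highest share at 35.5%, then RPS2 at 32.5%, RPL7 at 29.6% and RPSA at 29.5%. The level of these genes is uncertain to that extent.

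Other genes of the same pathway gave a similar picture, in lists chosen with earlier results of these data known. Of 17 TOP genes for translation factors and related proteins, 11 were above 0 and 6 below, with a median log2 fold change of 0.03 and 0 past the adjusted threshold. NACA, which guides nascent chains at the tunnel exit, had 18.0 and 21.6 FPKM under DMSO and 14.5 and 15.9 FPKM under SF1-8, a log2 fold change of -0.36 with an unadjusted p of 0.0380 by edgeR's quasi-likelihood test. Its entry also names PRIM1. EIF3E, a subunit of an initiation factor, had 48.5 and 45.6 FPKM under DMSO and 49.4 and 51.4 FPKM under SF1-8. Among 37 ribosome biogenesis factors 26 were above 0 and 11 below, with a median of 0.04, the same as that of abundant coding entries. Of these, NMD3, an export adaptor of the large subunit, had 18.8 and 24.6 FPKM under DMSO and 26.6 and 27.6 FPKM under SF1-8, and NOP56, a snoRNP core protein, had 23.2 and 20.03 FPKM under DMSO and 18.3 and 19.4 FPKM under SF1-8. The 12 genes of RNA polymerase I transcription, which makes the large rRNA precursor, split into 6 above and 6 below, with a median of 0.01. The polymerase subunit gene POLR1E had 18.4 and 17.3 FPKM under DMSO and 18.8 and 18.9 FPKM under SF1-8, and TAF1D, of a promoter factor, had 10.6 and 10.3 FPKM under DMSO and 10.8 and 11.2 FPKM under SF1-8. In the biogenesis and RNA polymerase I lists 0 genes had an unadjusted p under 0.05, beside 4.33% of all tested entries.

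The libraries held 45522905 to 67554610 estimated counts, with DMSO 1 the smallest. Erythroid markers were present, with 6 of 7 entries below 0 and a median log2 fold change of -0.04. GATA1 had 75.9 to 79.1 FPKM. The globin genes HBG1, HBG2 and HBE1 lie in 1 entry that also names HBD and genes that are not globins, such as TRIM5. Its level is therefore not that of a single globin gene. That entry had 33.3 and 29.3 FPKM under DMSO and 27.5 and 27.8 FPKM under SF1-8. Its unadjusted p was 0.0558 by edgeR's quasi-likelihood test. The entry of HBZ, which also names HBM, had 19.8 and 22.0 FPKM under DMSO and 20.7 and 18.0 FPKM under SF1-8. Summed fibroblast markers were 11.0 and 5.46 FPKM under DMSO and 2.77 and 0.769 FPKM under SF1-8. Of these, 9 of 10 were lower under SF1-8, 7 of them at an unadjusted p under 0.05 and 0 past the adjusted threshold. Over all tested entries 2.54% were lower at that unadjusted threshold. COL5A1 and COL6A1 had the smallest p, and LUM was listed at 0 in both SF1-8 libraries. Whether K562 cells or other cells made this RNA was not tested, and in bulk RNA fewer cells of a type and less RNA per cell cannot be told apart. These markers are low beside the members, and their part in the differences of RPL21, RPL22L1 and RPL29 was not tested. Ribosomal RNA entries took 11.0% and 14.04% of counts under DMSO and 13.8% and 11.8% under SF1-8. This class was set to take in mitochondrial rRNA and rRNA pseudogenes, so its share is not that of cytosolic rRNA alone. Small structured RNAs (7SL, 7SK, RMRP and RPPH1) took 1.31% and 2.52% under DMSO and 3.06% and 2.61% under SF1-8.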

How the data were processed

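Total RNA was depleted of ribosomal RNA and sequenced from 2 DMSO and 2 SF1-8 libraries. The submitters' processing notes name cutadapt, FastQC, Bowtie2, HISAT2, StringTie and hg38, without versions. The authors deposited FPKM, normalized by them for length and depth, and an estimated count per entry, used without further rounding, in 1 table in which an entry can name several genes. The commonest count above 0 was 4, so a count may not be 1 read and no counting error was computed. The 2095 entries without a gene name (0.358% to 0.421% of counts) were left out.

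Members and lists were chosen with earlier results of these data known. Counts were normalized by TMM, filtered by filterByExpr (26167 entries kept) and tested by edgeR's quasi-likelihood test (edgeR 4.0.16, R 4.3.3), with Benjamini-Hochberg adjustment over all entries. Sums were compared by exact permutation. Alternatives used limma 3.58.1, DESeq2 1.42.0, other scalings and filters, a replicate block and each library left out. Genes named were the 5 highest and 5 lowest by log2 fold change and by FPKM, those at an unadjusted p under 0.05, the stalk genes, paralogs with parents and a fixed set of known genes, and of the other lists described the 2 with the smallest p. The steps were first tested on simulated counts. The plots over all members leave out 1 tested member that is counted in the totals and not reported here.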

Additional observations from a re-analysis of the deposited data

How the results depend on the processing

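The count of members past the adjusted threshold was 0 in all 16 other settings, each with edgeR, DESeq2 or limma and Benjamini-Hochberg adjustment. The count at an unadjusted p under 0.05 was 3, became 6 (7.23%, beside 3.71% of all entries) with the replicate number as a block, and ran from 1 to 8 with a library left out. The median log2 fold change ran from -0.07 to 0.02 over members, from -0.05 to 0.09 over the TOP list, from -0.02 to 0.04 over the RNA polymerase I list and from -0.0035 to 0.08 over the biogenesis list, so none of these signs is settled. The ratio of summed FPKM, 1.00, was 0.997 over entries that name 1 gene, 0.990 after rescaling to coding entries, and 0.976 to 1.03 with a library left out, so its direction is not settled. The log2 fold change of RPL26L1 changed sign with a library left out (-0.00023 without SF1-8 2 to 0.54 without SF1-8 1), as did that of RPS13 (-0.42 without SF1-8 2 to 0.089 without SF1-8 1). The cause was not tested. Deviations of same-numbered libraries correlated at 0.02 over all tested entries and 0.32 over members, with 2 pairs only, so the numbers were not taken to pair libraries. The median standard error of a member was 0.0765 on the log2 scale. The fitted differences of 0.22 to 0.38 in size at an unadjusted p under 0.05 did not pass the adjusted threshold. Nor did the larger one of RPL7L1, 0.76 ± 0.299 (SE), in the edgeR quasi-likelihood fit. The smallest difference that could be detected was not computed, so a count of 0 past the threshold does not show that no member changed.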
